A study of Saccharomyces cerevisiae with 18 samples.

Results

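The mRNAs described here encode 48 factors that build the small subunit of the yeast ribosome. They are the UTP proteins, other subunits of the small-subunit processome, and factors of late 40S maturation, and they were picked by locus name. The 48 were found among 7127 counted features and were present in every library. The series measured polyadenylated RNA of budding yeast strain W303, grown asynchronously to log phase in YPD and ground frozen, in 6 groups of 3 libraries. In the pore groups the RNA is what purifications of nuclear pore complexes (NPCs) brought down, which can include RNA held by the matrix alone. Basket-containing pores were caught on IgG, while basket-less pores and all NPCs were caught on a GFP nanobody. The background purifications were made on the same matrices, IgG for the PrA control and the GFP nanobody for the GFP control. The input was total extract taken straight into Trizol. The labels name neither the tagged proteins nor any further allele of the strains. They also do not say whether replicates were separate cultures, so the p-values speak of the spread among these libraries alone, which may be technical.

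The small subunit is assembled in the nucleolus around the nascent ribosomal RNA transcript. The subcomplexes UTP-A and UTP-B bind it early, the U3 small nucleolar ribonucleoprotein pairs with it, and nucleases, helicases and a GTPase then cut and remodel it before late factors carry the particle out through the pore and finish it in the cytoplasm. The mRNAs of these proteins are known in yeast to be made together, in step with growth, and many of their promoters hold a PAC element and an RRPE element. Nuclear pores of yeast carry a basket of filaments on their inner face, and pores that lie over the nucleolus are known to lack it.

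The promoter windows of 4 members are shown, each from 250 bases before the first base of the start codon to 50 bases from that codon on (RefSeq R64, on the coding strand). KRR1 (locus YCL059C, chrIII:23330-23629, minus strand) and SAS10 (YDL153C, chrIV:182969-183268, minus strand) are shown because their mRNAs differed most between basket-containing and basket-less pores. UTP22 (YGR090W, chrVII:662108-662407, plus strand) is shown because its mRNA had the highest fold change of the members in basket-containing pores over the PrA control, and FCF1 (YDR339C, chrIV:1150471-1150770, minus strand) because its mRNA had the largest fall there. Capitals mark the PAC core (GATGAG), its longer form (GCGATGAG, counted also as a core) and RRPE (GAAAATTTT), on either strand.
KRR1: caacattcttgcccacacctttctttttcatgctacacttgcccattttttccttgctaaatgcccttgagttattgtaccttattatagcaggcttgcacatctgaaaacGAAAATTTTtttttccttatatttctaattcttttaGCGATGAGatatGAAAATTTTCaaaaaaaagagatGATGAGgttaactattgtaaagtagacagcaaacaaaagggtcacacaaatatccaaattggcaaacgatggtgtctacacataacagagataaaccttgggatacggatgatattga
SAS10: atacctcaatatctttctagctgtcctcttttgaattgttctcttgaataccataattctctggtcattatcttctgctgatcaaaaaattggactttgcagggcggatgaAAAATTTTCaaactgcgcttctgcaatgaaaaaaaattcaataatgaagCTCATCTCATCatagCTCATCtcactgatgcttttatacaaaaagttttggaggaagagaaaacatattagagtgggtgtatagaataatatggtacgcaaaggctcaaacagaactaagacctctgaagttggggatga
UTP22: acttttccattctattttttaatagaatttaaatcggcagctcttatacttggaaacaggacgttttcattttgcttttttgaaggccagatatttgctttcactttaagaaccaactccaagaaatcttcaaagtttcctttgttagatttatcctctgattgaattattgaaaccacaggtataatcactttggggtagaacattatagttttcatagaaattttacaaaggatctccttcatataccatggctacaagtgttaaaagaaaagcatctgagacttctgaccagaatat
FCF1: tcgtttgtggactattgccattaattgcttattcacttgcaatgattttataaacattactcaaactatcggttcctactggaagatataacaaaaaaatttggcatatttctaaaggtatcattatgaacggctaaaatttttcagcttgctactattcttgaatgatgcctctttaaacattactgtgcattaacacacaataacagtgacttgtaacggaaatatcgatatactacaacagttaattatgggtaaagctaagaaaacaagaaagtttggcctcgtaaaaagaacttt

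KRR1 has 2 PAC cores and 3 RRPE matches, a pair of which overlap on opposite strands. SAS10 has 3 PAC cores and 1 RRPE match. The UTP22 and FCF1 windows hold no match to either motif. Over the 47 members whose windows were searched, 43 windows (91.5%) held the PAC core, against 1221 of 5987 windows of the same length over all genes (20.4%). The longer PAC form was in 29 member windows (61.7%, against 3.94% of all), and RRPE was in 23 (48.9%, against 4.64% of all). Both PAC core and RRPE were in 22 member windows (46.8%, against 2.32%). The 4 with no PAC core were EMG1, FCF1, RRP7 and UTP22. Upstream of the start codon, PAC core matches lay from 55 to 229 bases away with a median of 109 bases. The lone PAC core of UTP4 lay inside the reading frame, 5 bases from the first base of the start codon. A match is a run of letters in the window and was not tested as a binding site.

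**Figure D1:**
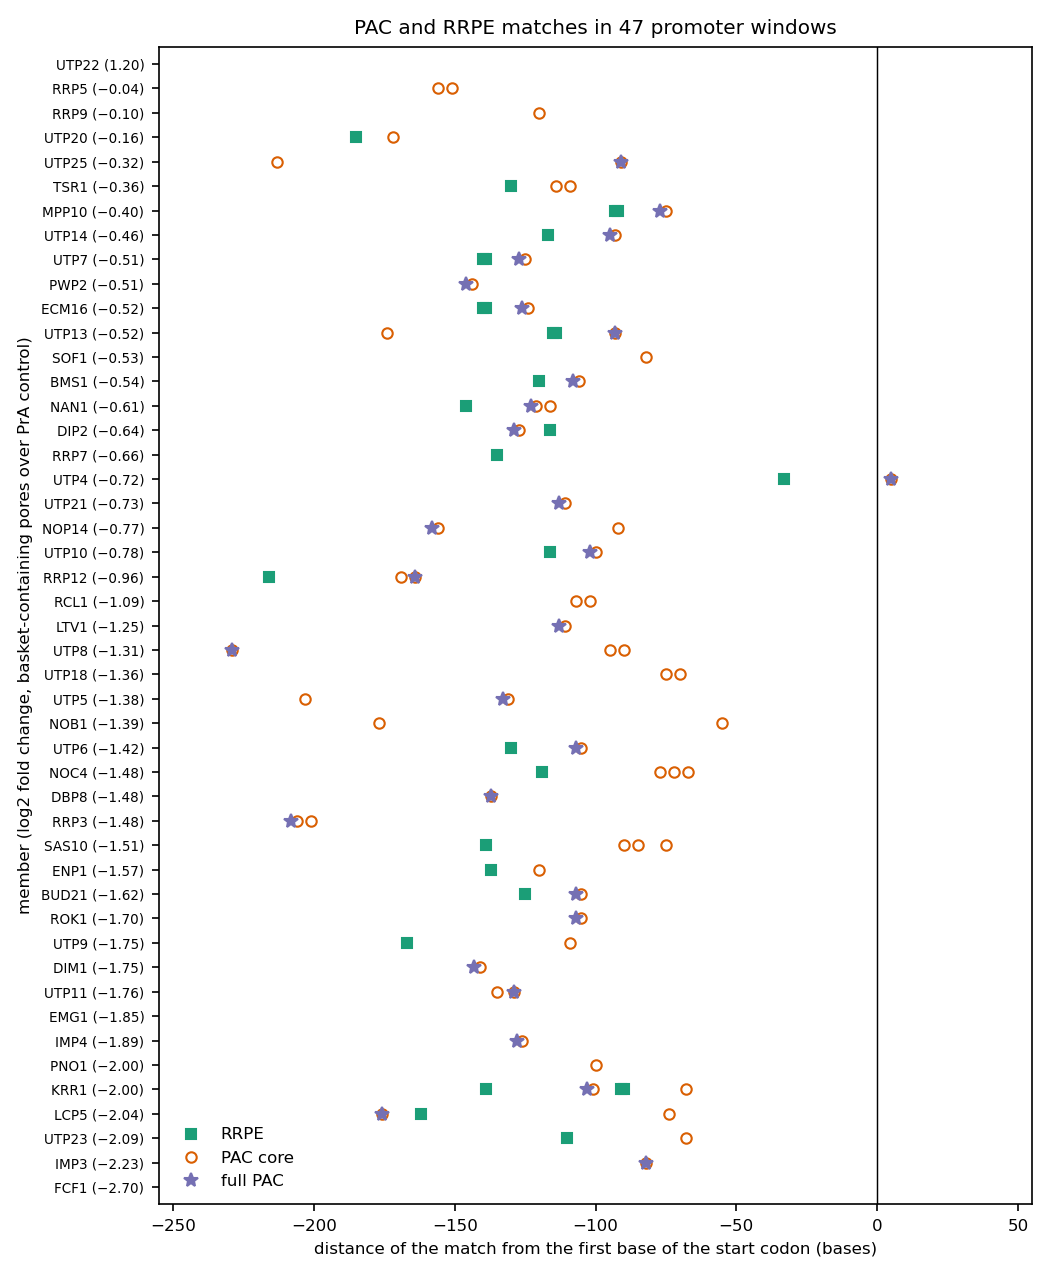
Position of each PAC core, full PAC and RRPE match in 47 promoter windows, as distance in bases from the first base of the start codon, with members ordered from highest to lowest log2 fold change (in parentheses) in basket-containing pores over the PrA control. UTP22, at the top, has no PAC core, and neither do EMG1, FCF1 and RRP7 further down.

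Library totals ran from 10592840 to 16620246 counts, and the lowest count of any member in any library was 54. Levels are CPM, counts scaled to library size with TMM factors. Those factors ran from 0.853 to 0.863 in basket-containing libraries and from 0.970 to 1.10 in the others. A level is therefore relative to the scaled size of its own library and is not the plain share of counts. A lower level can stand beside an equal or larger amount of RNA, and amounts were not compared. Each member is a single coding exon, none overlaps another gene of the annotation, and coding lengths run from 552 bases (IMP3) to 7482 bases (UTP20), with a median of 1708.5 against 1197 over all genes. Replicate 3 of the PrA control stood apart from its partners, with a chi-square per degree of freedom of 18.7 and 20.4 where counting error alone gives about 1. Without it, basket-containing pores against the PrA control again had 2 members called higher and 44 called lower.

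Summed over the 48 members, the assembly factor mRNAs took the smallest share of counts in basket-containing pores. There they held 0.261% ± 0.0088 of all counts (mean ± SD, n = 3), with 0.600% ± 0.0028 for basket-less pores and 0.607% ± 0.0070 for all NPCs. The PrA control was at 0.553% ± 0.0059, the GFP control at 0.545% ± 0.0039 and the input at 0.716% ± 0.0063. The basket-containing libraries lay between 0.254% and 0.271%, and the next lowest library of any group was at 0.541%. By mean CPM, 43 of the 48 members were lowest in basket-containing pores and 29 were highest in the input. The same counts were not made over all genes, so they are not read as particular to the members. The order of the members per kilobase changed most in basket-containing pores. Spearman's rho of their levels with those in the input was 0.38 there, against 0.86 for basket-less pores. Per kilobase, KRR1 led the input at 245 CPM and SAS10 led basket-less pores at 231 CPM. In basket-containing pores RRP7 (62.1 CPM per kilobase), BMS1 (57.6) and UTP14 (56.5) led. UTP6, a UTP-B subunit, was the lowest member per kilobase in every group but the input, at 5.91 in basket-containing pores and 10.7 in basket-less pores.

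**Figure D2:**
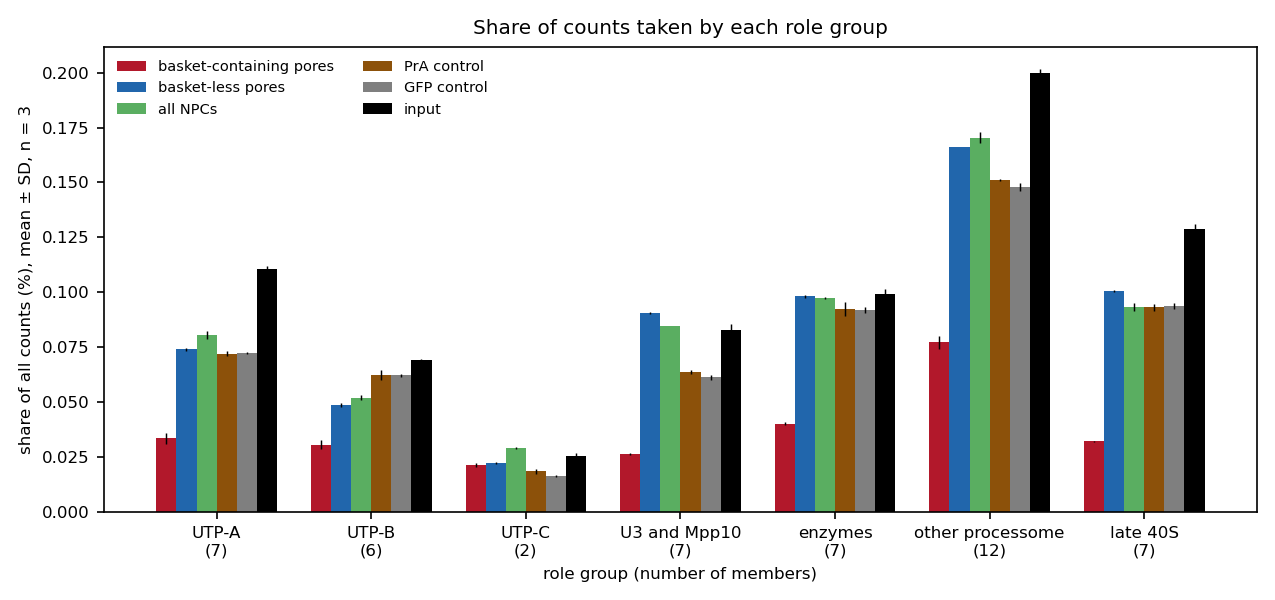
Share of all counts (%) taken by each role group of members in each of the 6 sample groups (bars, mean of 3 libraries, with SD). Basket-containing pores have the lowest bar for all role groups but UTP-C, where UTP22 keeps them at 0.0213%, with basket-less pores at 0.0221% and the GFP control at 0.0164%.

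The first comparison asks which mRNAs had a higher or lower scaled level with basket-containing pores than with the background of the same matrix. Against the PrA control, 44 members fell in basket-containing pores, 2 rose and 2 were not called (edgeR's quasi-likelihood test, Benjamini-Hochberg adjusted p under 0.05 over 6429 genes). Over all genes tested, 46.5% were called lower and 43.8% higher. The members' median log2 fold change was -1.17, against -0.07 over all genes, and 25 members were called and more than 2-fold lower, as were 28.6% of all genes. In 45 members every basket-containing library lay below every PrA control library, as it did for 46% of all genes.

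FCF1, the nuclease held to cut the early transcript (also called Utp24), had the largest fall. Its level was 12.6, 11.7 and 14.3 CPM in the basket-containing libraries, against 77.5, 74.4 and 101 CPM in the PrA control libraries. The groups were far apart, and the highest value was that of PrA control replicate 3. The log2 fold change was -2.70 ± 0.11 (SE, adjusted p = 3.55e-17 by edgeR). Without that library it was -2.56. IMP3 (YHR148W), a partner of Mpp10 and U3, had 4.82, 5.51 and 6.32 CPM in basket-containing pores, against 27.0, 26.7 and 23.8 CPM in the PrA control. No library of one group came near the other, and IMP3 fell by 2.23 ± 0.11 on the log2 scale (adjusted p = 4.03e-16 by edgeR).

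UTP22 and UTP15 went the other way. UTP22, a UTP-C subunit, had 189, 184.96 and 205 CPM in basket-containing pores, against 82.7, 87.6 and 81.5 CPM in the PrA control. Every pore library was above 180 CPM and every control library below 90 CPM, with a log2 fold change of 1.20 ± 0.05 (adjusted p = 2.37e-18 by edgeR). UTP15, a UTP-A subunit, had 82.2, 75.2 and 80.9 CPM in basket-containing pores, against 53.6, 53.1 and 60.4 CPM in the PrA control. The groups did not overlap, and the log2 fold change was 0.52 ± 0.07 (adjusted p = 7.02e-08 by edgeR). The 2 members not called were RRP5 and RRP9. RRP5 (YMR229C), which serves both subunits, had 278, 273 and 301 CPM in basket-containing pores, against 280, 281 and 315 CPM in the PrA control, and these groups overlapped. Its log2 fold change was -0.04 ± 0.05. RRP9 (YPR137W), the U3-specific protein, had 80.3, 86.2 and 87.1 CPM, against 92.3, 89.2 and 89.5 CPM in the PrA control, with a log2 fold change of -0.10 ± 0.05.

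**Figure D3:**
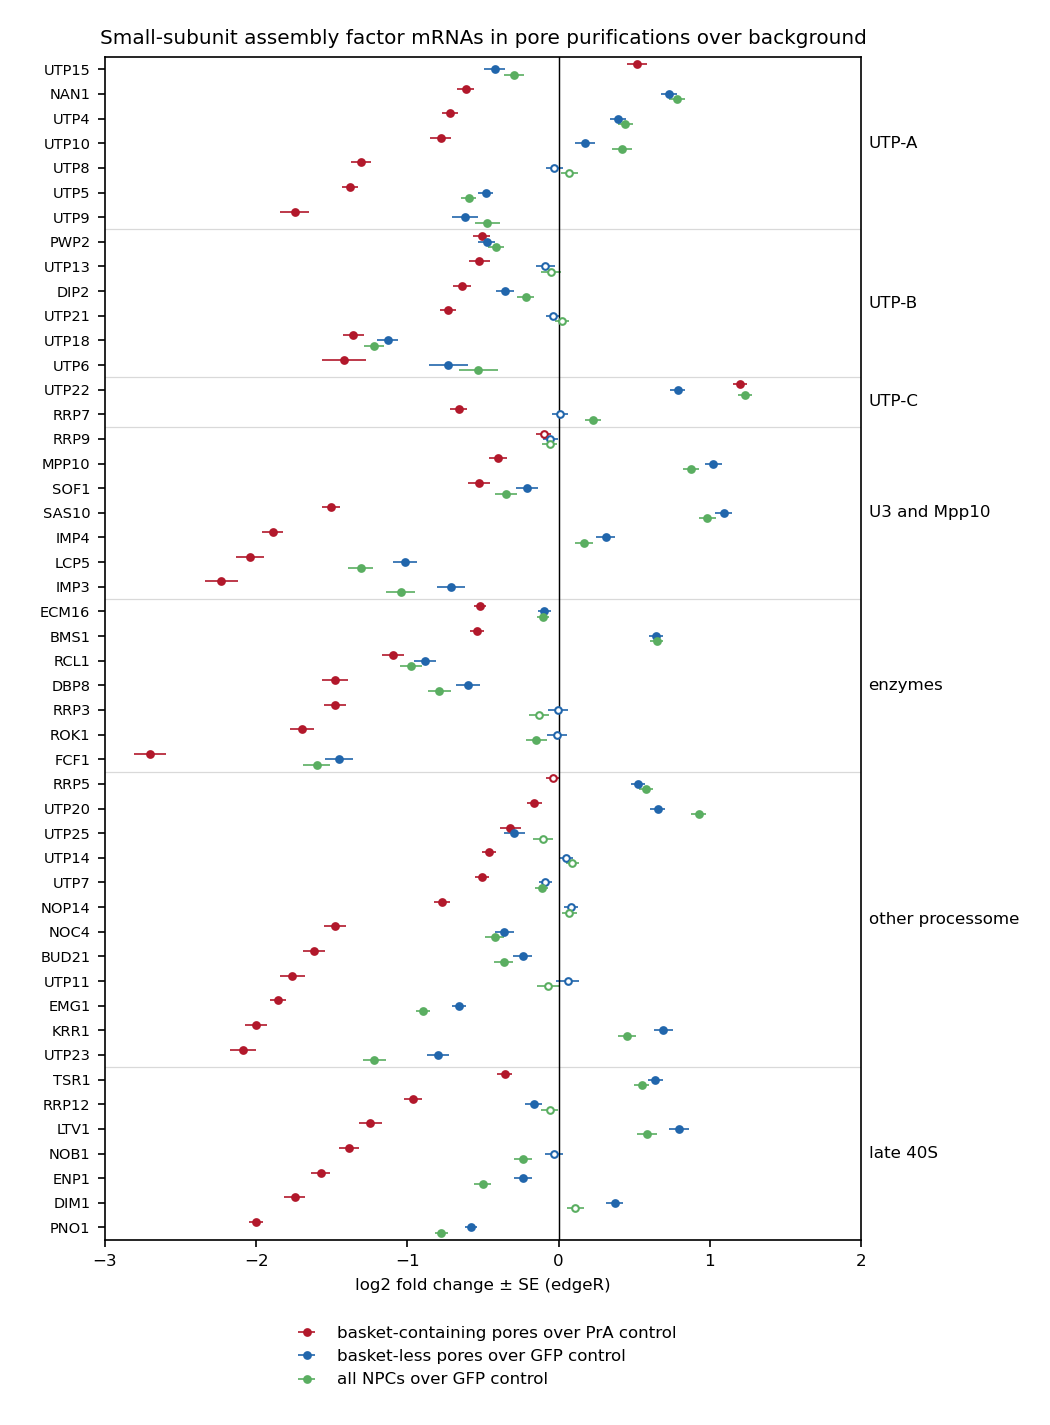
Log2 fold change ± SE of each member in basket-containing pores over the PrA control, basket-less pores over the GFP control and all NPCs over the GFP control, by role group (filled symbols called at adjusted p under 0.05 by edgeR, open symbols not called). In basket-containing pores 44 of 48 symbols are filled and left of 0, while basket-less pores and all NPCs have filled symbols on both sides.

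Basket-less pores divided the members. Against the GFP control, 14 rose, 22 fell and 12 were not called, where 47.1% of all genes were called higher and 35.5% lower. The median was -0.07, against 0.11 over all genes. All NPCs against the same GFP control libraries gave 14 members higher, 23 lower and 11 not called, with 46.9% of all genes called higher and 37.6% lower, and a median of -0.10 against 0.11. These comparisons share their control, so their values are given side by side and were not related to each other. Under upper-quartile scaling, which moved the median of all genes by -0.27 in the comparison of basket-less pores, 34 members were called lower there. That scaling moved the median by -0.29 in the comparison of all NPCs, where members called lower ran from 21 to 34 over all alternative fits.

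SAS10 and MPP10 (YJR002W), which join the U3 part of the processome, had the largest rises in basket-less pores. SAS10 had 421, 431 and 420 CPM in basket-less pores and 390, 400 and 392 CPM in all NPCs, against 191, 201 and 206 CPM in the GFP control. Every pore library lay above every control library, with log2 fold changes of 1.09 ± 0.05 (adjusted p = 1.52e-15) and 0.98 ± 0.05 (adjusted p = 8.28e-15) by edgeR. MPP10 had 215, 224 and 210 CPM in basket-less pores and 195, 196 and 195 CPM in all NPCs, against 101, 114 and 104 CPM in the GFP control. Its groups did not overlap either, and its log2 fold changes were 1.02 ± 0.05 and 0.88 ± 0.05.

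UTP22 had the largest rise in all NPCs, at 179.1, 182.4 and 183.1 CPM, with 129, 131 and 140 CPM in basket-less pores, against 75.5, 77.9 and 78.4 CPM in the GFP control. Both pore groups stood clear of the control, with log2 fold changes of 1.23 ± 0.05 in all NPCs and 0.79 ± 0.05 in basket-less pores. FCF1 was again lowest of the members over control. It had 33.5, 35.5 and 38.3 CPM in basket-less pores and 33.4, 31.0 and 32.5 CPM in all NPCs, against 95.01, 99.5 and 99.4 CPM in the GFP control. Every pore library lay below every control library, and FCF1 fell by 1.45 ± 0.09 in basket-less pores and by 1.60 ± 0.09 in all NPCs on the log2 scale.

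UTP18 (YJL069C), a UTP-B subunit, had 30.9, 31.0 and 30.1 CPM in basket-less pores, against 64.5, 67.3 and 69.7 CPM in the GFP control. It fell by 1.13 ± 0.07 on the log2 scale, with no overlap of libraries. LCP5 (YER127W), a relative of Sas10, had 30.4, 27.1 and 32.8 CPM in all NPCs, against 72.1, 76.2 and 75.7 CPM in the GFP control. The pore libraries were all below the control, and LCP5 fell by 1.31 ± 0.08 in all NPCs and by 1.01 ± 0.08 in basket-less pores.

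By role, the early-binding UTP-A mRNAs were 6 lower and 1 higher of 7 in basket-containing pores over the PrA control, and 3 higher and 3 lower over the GFP control in basket-less pores. UTP5 fell in both, by 1.38 ± 0.05 and by 0.48 ± 0.05 on the log2 scale. UTP8 fell by 1.31 ± 0.07 in basket-containing pores, while in basket-less pores its log2 fold change of -0.03 ± 0.06 was not called. The rises in basket-less pores were NAN1 (locus YPL126W, 0.73 ± 0.05), UTP4 (0.39 ± 0.05) and UTP10 (0.18 ± 0.07), and the call for UTP10 was lost under several other settings and turned to -0.09 under upper-quartile scaling. The 6 UTP-B mRNAs all fell in basket-containing pores over the PrA control, and over the GFP control in basket-less pores 4 fell and none rose. UTP18 fell by 1.36 ± 0.07 in basket-containing pores, UTP21 by 0.73 ± 0.05, UTP6 by 1.42 ± 0.15 and PWP2 by 0.51 ± 0.06. In the UTP-C pair, UTP22 rose in each pore group over its control. RRP7 fell by 0.66 ± 0.06 in basket-containing pores, had a log2 fold change of 0.01 ± 0.05 in basket-less pores that was not called, and rose by 0.23 ± 0.05 in all NPCs, a rise that became -0.06 under upper-quartile scaling.

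Of the 7 mRNAs of the U3 and Mpp10 group, 6 fell and none rose in basket-containing pores over the PrA control, with a median log2 fold change of -1.51, and over the GFP control in basket-less pores 3 rose and 3 fell. IMP4 (YNL075W), which binds Mpp10, and SAS10 had log2 fold changes of -1.89 ± 0.07 and -1.51 ± 0.06 in basket-containing pores, and of 0.31 ± 0.06 and 1.09 ± 0.05 in basket-less pores, all of them called. LCP5 fell in both, by 2.04 ± 0.09 in basket-containing pores. Of the 7 enzymes, all fell in basket-containing pores, and in basket-less pores 4 fell and 1 rose. One of the fallers in basket-less pores was ECM16, whose call was lost whichever library of basket-less pores or the GFP control was left out. BMS1 (YPL217C), the GTPase of the processome, was the riser, at 0.65 ± 0.04 over the GFP control in basket-less pores, and it fell by 0.54 ± 0.05 in basket-containing pores over the PrA control. The RNA helicases ROK1 and RRP3 fell by 1.70 ± 0.08 and by 1.48 ± 0.07 in basket-containing pores, and in basket-less pores neither was called, with log2 fold changes of -0.01 ± 0.07 for ROK1 and -0.0046 ± 0.07 for RRP3. RCL1, the partner of Bms1, fell in both, by 1.09 ± 0.07 and by 0.89 ± 0.07.

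Of the 12 other processome mRNAs, 11 fell and none rose in basket-containing pores over the PrA control, and over the GFP control in basket-less pores 3 rose and 5 fell. EMG1, an RNA methyltransferase, fell by 1.85 ± 0.05 in basket-containing pores and by 0.66 ± 0.05 in basket-less pores on the log2 scale. UTP23 (YOR004W), a nuclease relative, fell by 2.09 ± 0.09 and by 0.80 ± 0.07. UTP20 (YBL004W), the longest member, fell by 0.16 ± 0.05 in basket-containing pores. That call was lost without basket-containing replicate 2 (-0.10) and in a fit of the compared groups alone (-0.15). UTP20 rose by 0.66 ± 0.05 in basket-less pores and by 0.93 ± 0.05 in all NPCs. Of the 7 late 40S factors, all fell in basket-containing pores, with a median of -1.39, and in basket-less pores 3 rose and 3 fell. PNO1 (YOR145C), which stays on the particle into the cytoplasm, fell by 2.00 ± 0.05 in basket-containing pores and by 0.58 ± 0.04 in basket-less pores. NOB1, the nuclease that finishes the small-subunit RNA, fell by 1.39 ± 0.07 in basket-containing pores, and its log2 fold change of -0.03 ± 0.06 in basket-less pores was not called. TSR1, a GTPase-like factor, fell by 0.36 ± 0.05 in basket-containing pores and rose by 0.64 ± 0.05 in basket-less pores.

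Set directly against basket-less pores, basket-containing pores had 43 members lower, 2 higher and 3 not called, where 42.2% of all genes were called lower and 40.3% higher. The median was -1.11, against -0.04 over all genes, and 26 members were called and more than 2-fold lower, against 18.7% of all genes. The pore groups were caught on different matrices, so matrix and basket cannot be told apart in this comparison. KRR1, a processome protein with an RNA-binding KH domain, had 28.2, 22.2 and 28.0 CPM in basket-containing pores, against 184.4, 194.5 and 187.8 CPM in basket-less pores. It had the largest fall, 2.84 ± 0.07 on the log2 scale (adjusted p = 1.96e-21 by edgeR). SAS10 had 64.9, 69.1 and 62.3 CPM in basket-containing pores, against 421, 431 and 420 CPM in basket-less pores, and fell by 2.70 ± 0.06 (adjusted p = 1.88e-22 by edgeR). Neither mRNA had libraries of the groups anywhere near each other.

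UTP15 and UTP22 were the members higher in basket-containing pores. UTP15 had 82.2, 75.2 and 80.9 CPM in basket-containing pores, against 49.9, 43.5 and 44.8 CPM in basket-less pores, a log2 fold change of 0.79 ± 0.07 (adjusted p = 8.15e-11 by edgeR). UTP22 had 189, 184.96 and 205 CPM, against 129, 131 and 140 CPM in basket-less pores, a log2 fold change of 0.53 ± 0.05 (adjusted p = 6.94e-11 by edgeR). Both mRNAs had all libraries of basket-containing pores above all of basket-less pores. RCL1 (0.02 ± 0.08), RRP9 (0.06 ± 0.05) and UTP25 (0.08 ± 0.07) were not called. With DESeq2 size factors, which moved the median of all genes by 0.13 there, 4 members were called higher, as they were without basket-containing replicate 3. The lower calls of DIP2, PWP2, SOF1 and UTP18 were lost with those factors. Over all alternative fits the members called lower ran from 39 to 43.

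**Figure D4:**
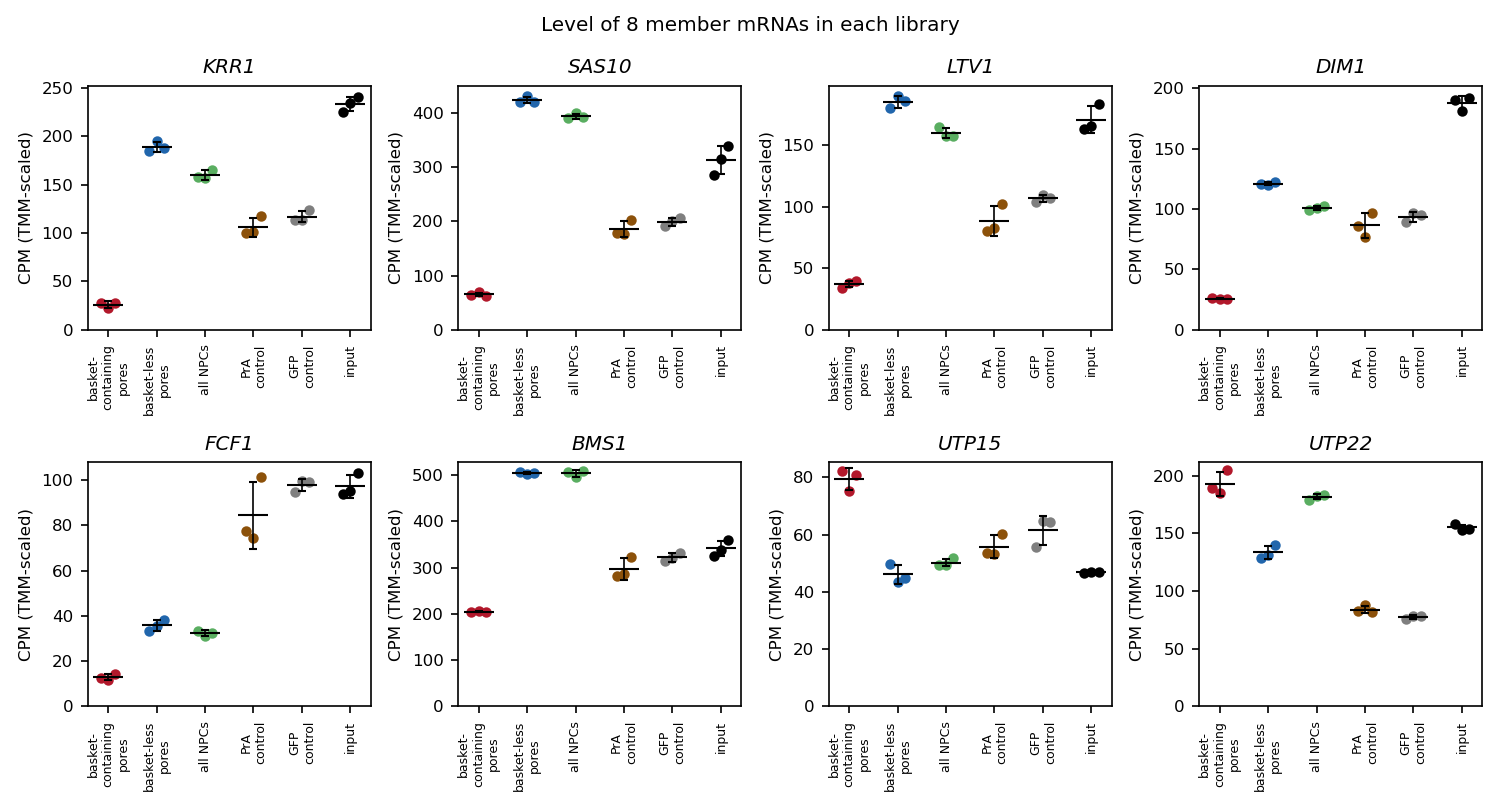
Level (TMM-scaled CPM) of 8 members in each of the 18 libraries, with points for libraries and a bar and whiskers for the mean ± SD of 3 libraries. KRR1, SAS10, LTV1, DIM1 and BMS1 are lowest in basket-containing pores and above the GFP control in basket-less pores, FCF1 is below both controls in all pore groups, and UTP15 and UTP22 are highest in basket-containing pores.

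With each pore group first set against the control of its own matrix, the difference of the differences was called for 44 members, 42 lower and 2 higher for basket-containing pores, where 39.5% of all genes were called lower and 36.6% higher. Its median was -1.01, against -0.03 over all genes. PWP2 (-0.03 ± 0.08), RCL1 (-0.21 ± 0.10), RRP9 (-0.04 ± 0.07) and UTP25 (-0.03 ± 0.10) were not called. With DESeq2 size factors the lower calls of DIP2, SOF1 and UTP18 were lost, and that of UTP18 also without some single libraries. Over all alternative fits the members called lower ran from 39 to 43. In 13 members the separate fold changes were called in opposite directions, and the difference itself was called for each. In 12 of them the mRNA fell in basket-containing pores over the PrA control and rose over the GFP control in basket-less pores: BMS1, DIM1, IMP4, KRR1, LTV1, MPP10, NAN1, SAS10, TSR1, UTP10, UTP20 and UTP4. Under upper-quartile scaling the rise of UTP10 became -0.09, and the rises of DIM1 (0.10) and IMP4 (0.04) were not called. The fall of UTP20 was not called without basket-containing replicate 2 or in a fit of the compared groups alone. The other was UTP15, which fell by 0.42 ± 0.07 over the GFP control in basket-less pores. How many of all genes had such opposite calls was not counted, so the 13 are not read as a trait of the members.

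KRR1 had 28.2, 22.2 and 28.0 CPM in basket-containing pores against 99.6, 100.5 and 117 CPM in the PrA control, and 184.4, 194.5 and 187.8 CPM in basket-less pores against 113, 114 and 124 CPM in the GFP control. Basket-containing libraries were all below their control and basket-less libraries all above theirs, and the difference of differences was -2.695 ± 0.10 (adjusted p = 3.89e-18 by edgeR). The same held for DIM1 (YPL266W), the dimethyltransferase of the small-subunit RNA. It had 26.0, 25.7 and 25.3 CPM in basket-containing pores against 85.7, 76.7 and 96.8 CPM in the PrA control, and 121, 120 and 122 CPM in basket-less pores against 89.0, 96.5 and 95.004 CPM in the GFP control. LTV1 (YKL143W), a late factor of the maturing particle, had 34.2, 38.3 and 39.4 CPM in basket-containing pores against 80.6, 82.5 and 102 CPM in the PrA control, and 180, 190 and 186 CPM in basket-less pores against 104, 110 and 107 CPM in the GFP control. In both mRNAs no pore library overlapped its control.

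IMP4 had 18.6, 17.4 and 16.8 CPM in basket-containing pores against 65.8, 63.9 and 66.9 CPM in the PrA control, and 69.7, 60.2 and 65.8 CPM in basket-less pores against 52.1, 55.2 and 49.99 CPM in the GFP control. The margin in basket-less pores was the narrower one, since the lowest pore library was 60.2 CPM and the highest control library 55.2 CPM. MPP10 had 81.3, 77.1 and 78.4 CPM in basket-containing pores, against 103, 97.1 and 114 CPM in the PrA control. NAN1 had 69.8, 67.2 and 74.4 CPM in basket-containing pores against 111, 113 and 99.3 CPM in the PrA control, and 150, 155 and 161 CPM in basket-less pores against 98.3, 89.6 and 93.3 CPM in the GFP control. None of these groups overlapped its control. BMS1 had 204, 206 and 203 CPM in basket-containing pores against 282, 285 and 323 CPM in the PrA control, and 506, 501 and 504 CPM in basket-less pores against 313, 320 and 332 CPM in the GFP control. Its libraries too stood clear of the control on both sides.

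With basket-less pores set over all NPCs, 11 members rose, 5 fell and 32 were not called, where 20.3% of all genes were called higher and 22.8% lower. In a fit of these groups alone, 19 rose and 8 fell. The median was 0.08, against -0.0028 over all genes, and no member was called past 2-fold, as 0.0622% of all genes were upwards and 0.373% downwards. UTP23 had the largest rise (0.42 ± 0.08) and UTP22 the largest fall, 0.44 ± 0.05 on the log2 scale. Of the 7 late 40S factors, 5 rose. Basket-containing pores against all NPCs had 41 members lower and 1 higher, UTP15 at 0.66, with 41.7% of all genes called lower and 38.7% higher. With DESeq2 size factors, with no filter, by the DESeq2 Wald test or without basket-containing replicate 3, 4 were higher, and without basket-containing replicate 2, 2 were.

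Against the input, every pore group and both controls had most members at a lower scaled level. Basket-containing pores had 46 members lower and 2 higher than the input (45.5% of all genes lower, 43.9% higher), with a median of -1.50 against -0.05 over all genes. KRR1 had 28.2, 22.2 and 28.0 CPM in basket-containing pores, against 225, 234 and 240 CPM in the input, and fell by 3.15 ± 0.07 on the log2 scale. UTP15 (0.76 ± 0.07) and UTP22 (0.31 ± 0.05) were the risers. The rise of UTP22 became -0.02 under upper-quartile scaling. UTP15 had 46.7, 46.8 and 47.0 CPM in the input, below every basket-containing library. Basket-less pores had 36 members lower and 4 higher than the input (36.1% of all genes lower, 44% higher), and all NPCs had 35 lower and 4 higher (37.1% lower, 44.6% higher). Under upper-quartile scaling the higher members numbered 2 for basket-less pores, 1 for all NPCs and 1 for basket-containing pores. BMS1 rose by 0.56 in basket-less pores as well as all NPCs, and SAS10 by 0.44 in basket-less pores and by 0.33 in all NPCs, where upper-quartile scaling left SAS10 at 0.06 and not called.

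The PrA control had 34 members lower and 6 higher than the input (41.2% of all genes lower, 37.5% higher), and the GFP control had 30 lower and 7 higher (42.4% lower, 37.2% higher). These 5 comparisons share the input libraries. UTP4 fell most in both controls, by 1.47 in the PrA control and by 1.59 in the GFP control, and LCP5 rose most, by 0.40 and 0.62. Set over the GFP control, the PrA control had 6 members higher and 9 lower (16.1% of all genes higher, 16.7% lower), and log2 fold changes between -0.28 (LTV1) and 0.34 (UTP11). Without replicate 3 of the PrA control, 8 were higher and 16 lower, while 3 were lower without its replicate 1, without its replicate 2 or without GFP control replicate 2. Without GFP control replicate 3, 5 were lower, and in a fit of these groups alone 2 were.

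Fold changes went with coding length, among the members as among all genes. In basket-containing pores over the PrA control, Spearman's rho of the log2 fold change with coding length was 0.74 over the 48 members and 0.57 over 5773 genes with a length. For basket-less pores over their GFP control it was 0.41 over the members and 0.53 over all genes, and in all NPCs over the GFP control 0.54 and 0.58. The points share their libraries, and these values are given as a description only. Without the 3 longest members the same values were 0.73, 0.34 and 0.47. In basket-less pores over all NPCs the relation ran the other way, at -0.70 over the members and -0.56 over all genes. Each member was set against the median fold change of the non-member genes of similar coding length, in 10 bins of equal size. In basket-containing pores over the PrA control 47 of 48 members lay below it, with a median difference of -1.54, and UTP15 was the exception. For basket-less pores over their GFP control 37 lay below, with a median difference of -0.48. UTP22, with its long reading frame, differed from its bin by -0.14 in basket-containing pores over the PrA control, where the median log2 fold change of a bin ran from -1.31 to 1.34. The part of RNA length in these fold changes was not tested.

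**Figure D5:**
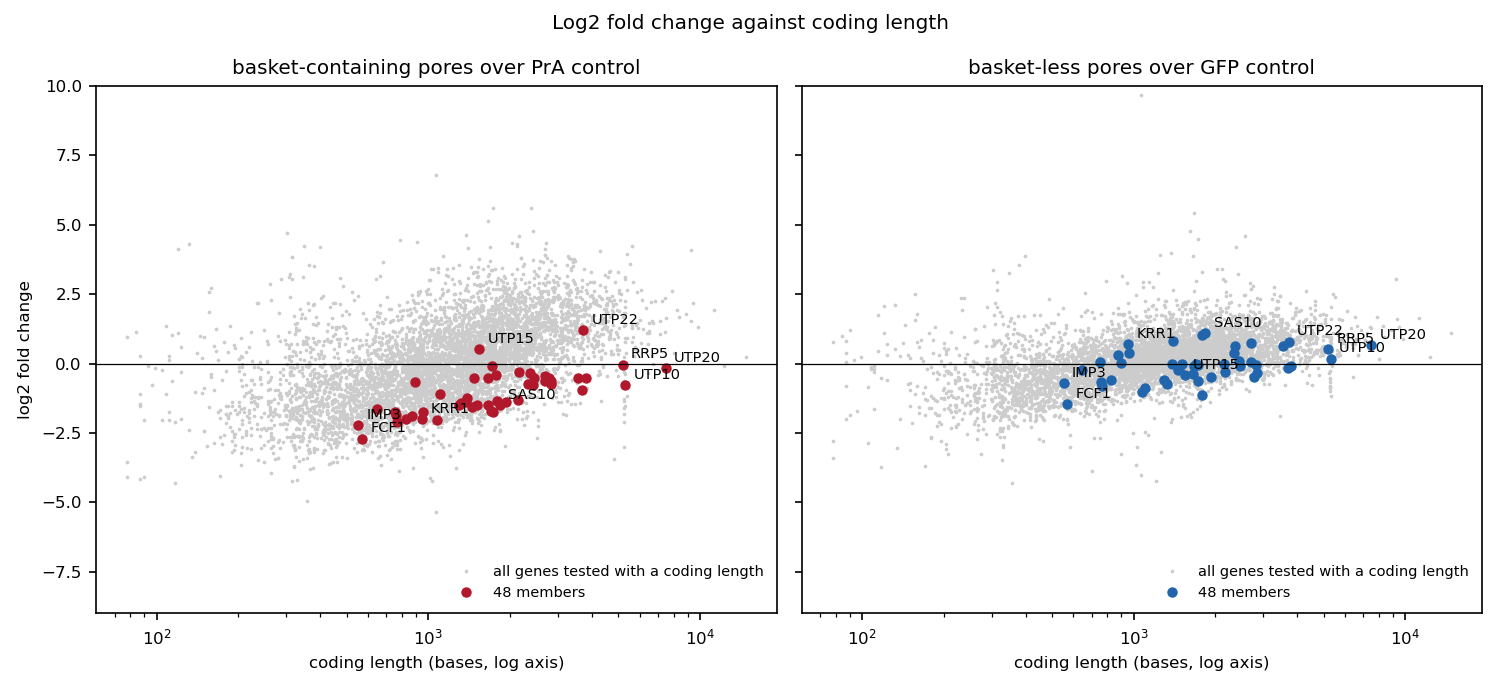
Log2 fold change against coding length (log axis, bases) in basket-containing pores over the PrA control (left) and basket-less pores over the GFP control (right), with all genes tested that have a coding length in grey and the 48 members in colour. Short members such as IMP3 and FCF1 lie lowest on the left, and the longest, UTP20, lies close to 0 there. On the left 47 members and on the right 37 lie below the median of non-member genes of similar length.

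The fold changes of members with and without each motif overlapped. In basket-containing pores over the PrA control, the 43 members with a PAC core had a median log2 fold change of -1.25 and ran from -2.23 to -0.04. The 4 without it had a median of -1.26 and ran from -2.70 to 1.20. Of these 4, UTP22 rose and EMG1, FCF1 and RRP7 fell. The 23 members with RRPE had a median of -0.72 and the 24 without it -1.37. In basket-containing over basket-less pores these medians were -1.11 and -1.16, and in the difference of differences -1.03 and -1.05. Members with and without a motif were not matched for coding length, and a link of motif and fold change was not tested.

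The rest of the pathway mostly had lower scaled levels in basket-containing pores as well. Of 30 further small-subunit factors, 26 fell and 2 rose over the PrA control, with a median of -1.46, and over the GFP control in basket-less pores 12 rose and 14 fell, with a median of -0.03. SQS1, an activator of the helicase Prp43, was a riser in both (2.53 ± 0.05 and 1.11 ± 0.05), and NSR1, the yeast nucleolin, fell by 2.29 ± 0.04 in basket-containing pores. The 4 core proteins of box C/D ribonucleoproteins, which U3 shares, all fell in basket-containing pores (median -2.35), and in basket-less pores 3 rose, NOP58 by 1.14 ± 0.05 and NOP56 by 0.88 ± 0.06 among them, and SNU13 fell by 1.30 ± 0.06. Of 61 large-subunit assembly factors, 59 fell and 2 rose in basket-containing pores (median -1.67), with 33 higher and 20 lower in basket-less pores (median 0.18). Over all genes, 43.8% were called higher and 46.5% lower in basket-containing pores (median -0.07), and 47.1% higher and 35.5% lower in basket-less pores (median 0.11), so the large-subunit counts in basket-less pores lie near those of all genes. The 57 mRNAs of small-subunit ribosomal proteins all fell in basket-containing pores (median -2.49), and 55 fell and 1 rose in basket-less pores (median -1.04). Of these ASC1 fell by 3.35 ± 0.04 in basket-containing pores. The median of the 48 members in basket-containing pores, -1.17, lay nearer to 0 than that of each of these lists, a difference that was not tested. Fold changes there went with coding length, and these lists were not set against genes of similar length.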

How the data were processed

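The authors deposited 1 column of raw read counts per gene for each of 18 libraries. Per the submitters' processing notes, they used STAR, featureCounts and DESeq2 with the R64 build. Neither versions nor strandedness nor the handling of multi-mapping reads is stated in these notes. The counts were used as deposited. All comparisons were contrasts in 1 fit over the 18 libraries with edgeR 4.0.16 in R 4.3.3 (filterByExpr, which kept 6429 genes, TMM factors, robust dispersions, glmQLFit and glmQLFTest, a two-sided test). Benjamini-Hochberg adjustment ran over all genes tested, with calls made at adjusted p under 0.05. Errors of log2 fold changes are the absolute value over the square root of F. Errors of levels are SD over 3 libraries. The fit was also run on simulated counts in which few genes changed, as many up as down. Far more genes were called here, so that run does not vouch for the scaling or the calls in these data. Alternatives were DESeq2 1.42.0 (Wald test) or its size factors, upper-quartile factors, dropping the filter, a filter at a mean count of 50, keeping nuclear reading frames only, a replicate block, fits of the compared groups alone, and dropping each library in turn. Promoter windows and coding lengths came from the RefSeq R64 genome and annotation. The promoter window of 1 member is not reported here and is left out of the motif counts. The rule for the 48 members reads locus names and no measured value, but the members, the other gene lists, the tests and the motifs were chosen with earlier results of these data known. Levels are given in every library for the 2 highest and 2 lowest fold changes of a comparison and for members called in opposite directions, at most 8 by largest gap, and each role group and list has up to 4 or 3 named by smallest adjusted p or by going against the rest. RRP5 and RRP9, not called in basket-containing pores over the PrA control, and some members named for their role were added after their values were seen.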

Additional observations from a re-analysis of the deposited data

Results flagged for a closer look

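In 13 members the fold change over the own background control was called in one direction for basket-containing pores and in the other for basket-less pores, and the difference of the differences was itself called by edgeR with Benjamini-Hochberg adjustment. It was -2.695 for KRR1, -2.60 for SAS10, -2.205 for IMP4, -2.12 for DIM1, -2.04 for LTV1, -1.43 for MPP10, -1.34 for NAN1, -1.18 for BMS1 and 0.94 for UTP15 on the log2 scale. The basket-containing pores were caught on IgG and the basket-less pores on the GFP nanobody, so matrix and basket cannot be told apart. How many of all genes had such opposite calls was not counted, so the 13 are not read as a trait of the members.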

How the results depend on the processing

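The tally followed 491 pairs of a member and a comparison, those called in the main fit and a few named pairs that were not called. Of 7138 recomputed values for them, 6951 kept their direction and side of the threshold and 157 lost the call. A further 17 gained one and 13 changed sign, 10 of them under upper-quartile factors. Most uncalled pairs were not followed, so calls they gained and their changes of sign are not in this tally. Those factors moved the median of all genes by -0.34 in basket-containing pores over the PrA control, -0.27 over the GFP control in basket-less pores and -0.29 over it in all NPCs. The members' median less that of all genes stayed at -1.10, -0.18 and -0.21 there. Under upper-quartile factors the log2 fold change became -0.0923 for UTP10 over the GFP control in basket-less pores, -0.12 for IMP4 and -0.063 for RRP7 in all NPCs over the GFP control, and -0.0561 for RCL1 and -0.0234 for RRP9 in basket-containing over basket-less pores. Over the input it became -0.0174 for UTP22 in basket-containing pores, -0.0596 for BUD21 and -0.0047 for MPP10 in basket-less pores, and -0.0041 for UTP20 and -0.0442 for UTP22 in all NPCs. With the same factors 34 members were called lower over the GFP control in basket-less pores, and 1, 2 and 1 higher than the input in basket-containing pores, basket-less pores and all NPCs. Members lower over the GFP control in all NPCs ran from 21 to 34 over all alternative fits. With DESeq2 size factors, no filter or the DESeq2 Wald test, 4 members were called higher in basket-containing pores than in basket-less pores, and 4 than in all NPCs. With only the groups compared, 19 members rose and 8 fell in basket-less pores over all NPCs, and 2 lower in the PrA than in the GFP control. Leaving out 1 library, the log2 fold change of RRP5 in basket-containing pores over the PrA control ran from -0.0689 to 0.0148, the upper value without PrA control replicate 3. That of RCL1 in basket-containing over basket-less pores ran from -0.0228, without basket-containing replicate 1, to 0.178, and was -0.0092 without basket-less replicate 2. Over such fits the count of members called higher ran from 2 to 4 in basket-containing over basket-less pores and from 1 to 4 in basket-containing pores over all NPCs, both highest without basket-containing replicate 3. Members lower in the PrA than in the GFP control ran from 3 to 16, highest without PrA control replicate 3. The causes were not tested. Correlations of same-numbered libraries ran from -0.16 to 0.28 and in no comparison were all 3 over 0.1. They came nearest to it in the PrA control over the input (0.124, 0.0977 and 0.28). In basket-containing over basket-less pores all 3 (0.074, 0.0518 and 0.0547) lay above the correlations with libraries of other numbers. The same held in all NPCs over the GFP control and in basket-containing pores over the input, and in the other comparisons not all 3 did. These values were small, and the numbers were not taken to pair samples. With the replicate block, 2 members were higher and 44 lower in basket-containing pores over the PrA control, and over the GFP control in basket-less pores 14 and 22. No member had a count of 0, and the widest error in basket-containing pores over the PrA control was that of UTP6, 0.15 on the log2 scale.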
